A study of Mus musculus with 16 samples.

Results

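Cdx1, Cdx2, Hnf4a, Hnf4g, Prdm1, Klf5, Tcf7l2, Vdr and Elf3 are transcription factors that set and keep the identity of the gut epithelium. They were taken by symbol from the deposited table of read counts, and the set was chosen with earlier results of these data known. All 9 were found among 21442 genes, and all 9 passed the filter on low counts that left 12915 genes for testing.

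The RNA came from epithelial cells of the distal colon of mice aged 6 to 8 weeks. RedMUC298trTg mice, called WT here, carry an mCherry reporter active in goblet cells, which make the mucus of the gut. The second strain was SpdefKO_RedMUC298trTg, the same reporter with a mutation of Spdef, a transcription factor of secretory cells. Living cells were sorted into an mCherry-positive fraction, the goblet cells (GC), and an mCherry-negative fraction of all remaining epithelium (EC), which the labels call colonocytes. The groups WT_EC (libraries 10, 12, 14 and 17), WT_GC (9, 11, 13 and 18), SpdefKO_EC (4, 6, 8 and 20) and SpdefKO_GC (3, 5, 7 and 19) held 4 libraries each. Every library came from a reporter mouse, so no group is free of the transgene, and goblet cells too dim for the gate would fall into EC. GC and EC lysates went through different RNA columns, so the column and the fraction cannot be told apart. Whether the libraries of a group stand for separate mice is not in the labels, so the spread that the tests use may be technical in part.

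CDX1 and CDX2 are caudal-type homeobox proteins that direct the intestinal programme of the epithelium. HNF4A and HNF4G are related nuclear receptors that bind the same kind of site and drive genes of absorption, lipid handling and the brush border. VDR, the vitamin D receptor, acts with RXR partners on calcium transport genes. TCF7L2 carries β-catenin to Wnt target genes in crypts. PRDM1 (also called BLIMP1) is a zinc finger repressor known in the fetal gut and in plasma cells, KLF5 is a zinc finger factor of proliferating crypt cells, and ELF3 is an epithelial ETS factor, the same family as SPDEF.

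Values are CPM, counts per mega-count of each library's gene counts after TMM scaling, and groups are given as mean ± SD (n = 4). Gene counts per library ran from 10085637 to 17111987. A gene is said to differ, rise or fall where its adjusted p in the edgeR quasi-likelihood test over all 12915 genes was under 0.05. Log2 changes are given ± their approximate standard error. In RNA from many cells, a smaller share of expressing cells and less RNA per cell cannot be told apart.

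The fractions carried the markers of their labels. All 10 goblet cell markers were higher and all 12 markers of absorptive colonocytes lower in GC than in EC, in both genotypes. The goblet markers summed to 48916–66434 CPM in GC libraries and 544–780.1 CPM in EC libraries. Spdef itself stood at 296 ± 17.7 CPM (WT_GC) against 370.2 ± 62.2 CPM (SpdefKO_GC; log2 0.33, adjusted p = 0.116). It was thus not lower in the goblet libraries labelled SpdefKO, and the labels do not describe the mutation. Every comparison of genotypes below rests on the labels. The number of genes detected was also higher in SpdefKO_GC (17221–18056) than in WT_GC (16553–17105).

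Because genes of different length collect different numbers of reads, levels were compared between genes as CPM per kb of annotated exon. In WT_EC Elf3 stood highest at 327 ± 44.3 CPM per kb, followed by Hnf4a at 225 ± 21.0 and Cdx1 at 112 ± 4.66. Vdr (69.5 ± 6.00), Cdx2 (52.7 ± 7.70) and Klf5 (42.2 ± 2.81) came next, and the libraries of neighbours in this trio overlapped. Hnf4g (25.4 ± 0.378), Tcf7l2 (12.4 ± 1.08) and Prdm1 (1.71 ± 0.145 CPM per kb) closed the order.

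Goblet cells kept Elf3 on top at 249 ± 38.1 CPM per kb, but Cdx1 (109 ± 9.97) now stood above Hnf4a (80.2 ± 3.49). Klf5 (43.2 ± 4.10) stood above Cdx2 (33.5 ± 1.99) and Vdr (22.1 ± 2.97). Prdm1 was again last, at 0.151 ± 0.0519 CPM per kb. No neighbours in the WT_GC order overlapped. The order was the same in SpdefKO_EC as in WT_EC, and the same in SpdefKO_GC as in WT_GC. In SpdefKO_GC the libraries of Cdx2 and Vdr overlapped.

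The comparison of goblet cells with the remaining epithelium asks how far each factor is shared by the secretory and the absorptive side of the colon. Of the 9 factors, 7 were lower in WT_GC than in WT_EC, none was higher, and Cdx1 and Klf5 did not pass. Over all genes tested, 61.2% differed in this comparison, 30.2% being lower and 31.0% higher. The same 7 of 9 were lower in SpdefKO_GC than in SpdefKO_EC, where 56.4% of all genes differed, 28.4% lower and 28.0% higher. The median log2 change of the 9 was -0.81 in WT and -0.78 in SpdefKO, against 0.05 and 0.03 over all genes tested. No member was higher at an unadjusted p under 0.05 in WT and 1 was in SpdefKO (Klf5), and DESeq2 gave 0 higher in both.

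**Figure D1:**
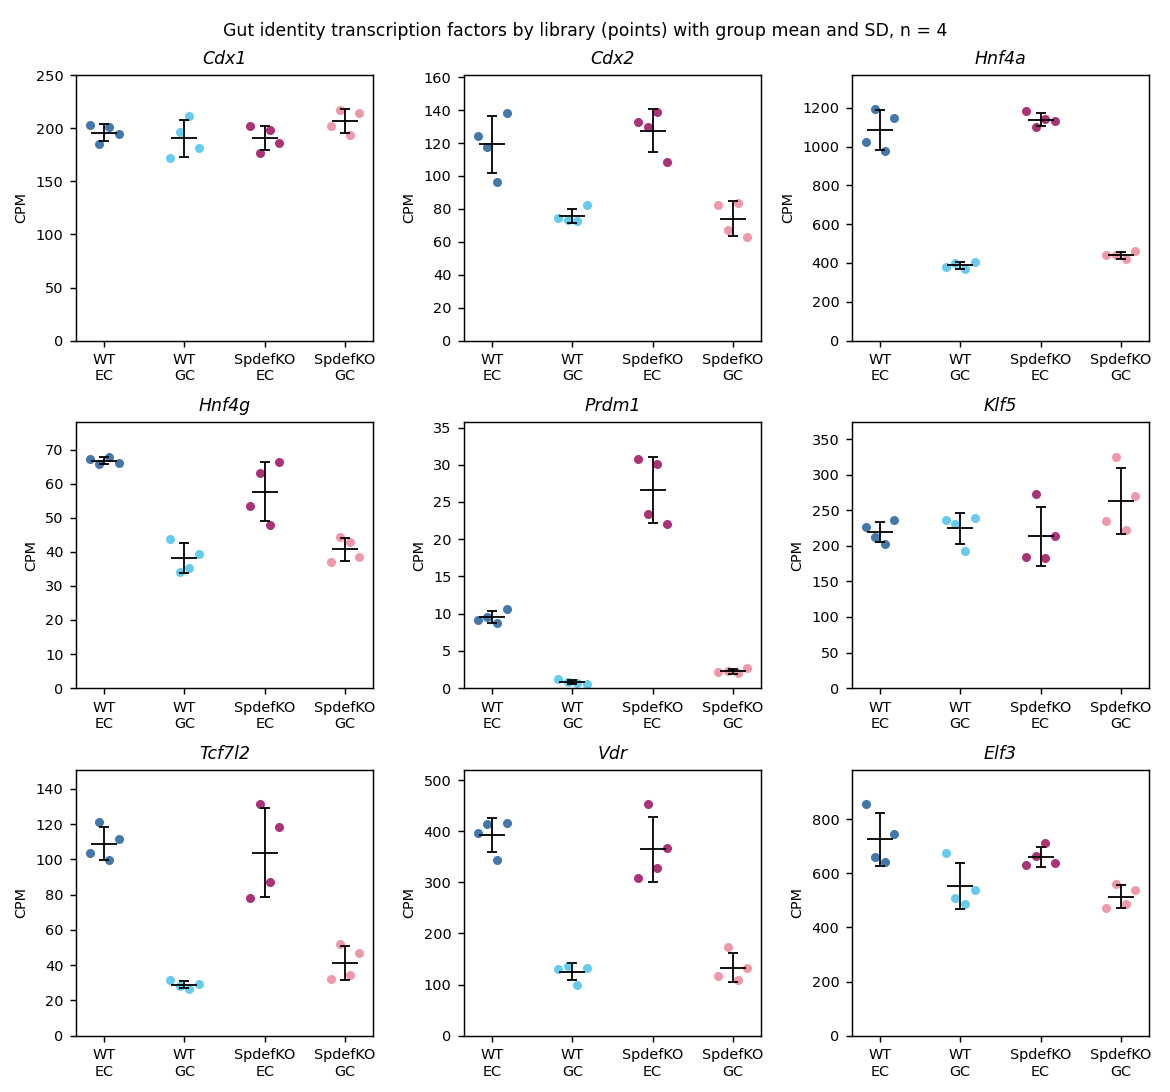
CPM (y axis, from 0) of each factor in the 4 libraries of each group (x axis), with group mean and SD. Cdx1 and Klf5 lie at about the same height in all groups, Prdm1, Tcf7l2, Vdr and Hnf4a fall far below EC in GC, and Prdm1 is the factor whose SpdefKO libraries lie above all WT libraries in both fractions.

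The caudal homeobox pair split between the fractions. Cdx1 lies on chromosome 18 (61018862–61036199 of GRCm38, minus strand, 3 exons). It was at 203, 185, 201 and 195 CPM in WT_EC and 172, 197, 212 and 181 CPM in WT_GC, and the libraries overlapped (log2 -0.04 ± 0.071, adjusted p = 0.641). The approximate 95% interval of that difference ran from -0.18 to 0.10. In SpdefKO_EC it was at 202, 177, 198 and 186 CPM and in SpdefKO_GC at 203, 218, 193 and 214 CPM (log2 0.12, adjusted p = 0.173, interval -0.02 to 0.26). Only upper-quartile scaling, which moved the median of all genes by 0.11 in this comparison, put Cdx1 higher in SpdefKO_GC (log2 0.23, adjusted p = 0.0101).

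Cdx2, on chromosome 5 (147300805–147307270, minus strand, 3 exons), was lower in goblet cells of both genotypes. Its levels were 124, 118, 96.4 and 138 CPM in WT_EC and 74.2, 73.2, 72.8 and 82.3 CPM in WT_GC, so that every goblet library lay below every EC library (log2 -0.66 ± 0.11, adjusted p = 4.09e-05). The SpdefKO_EC libraries were at 133, 129.6, 139 and 108 CPM against 82.6, 67.4, 83.6 and 62.8 CPM in SpdefKO_GC (log2 -0.78, adjusted p = 5.86e-06). Goblet cells thus held 63.5% of the EC level in WT and 58.2% in SpdefKO. Neither difference passed against a 1.5-fold bound (adjusted p = 0.316 and 0.054).

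The count ratio of Cdx1 to Cdx2, which does not depend on library scaling, stood higher in goblet libraries but did not pass after adjustment. It averaged 1.67 (1.41–2.09) in WT_EC and 2.53 (2.203–2.91) in WT_GC, and 1.51 (1.37–1.72) in SpdefKO_EC against 2.85 (2.31–3.41) in SpdefKO_GC. The ranges of GC and EC did not overlap in either genotype. An exact two-sided permutation test gave p = 0.0286 in each, the smallest it can give with 4 libraries against 4, and 0.0571 after adjustment over the 8 ratio tests. None of the 8 was under 0.05 after adjustment. Between genotypes the log2 ratio differed by 0.16 in GC (exact permutation p = 0.343, adjusted 0.457) and by -0.14 in EC (p = 0.4, adjusted 0.457), with overlapping libraries.

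Both HNF4 receptors were lower in goblet cells, Hnf4a more so. Hnf4a, on chromosome 2 (163506808–163572910, plus strand), was at 1022, 1192, 976 and 1146 CPM in WT_EC and 377, 399, 369 and 404 CPM in WT_GC. This was 2.80-fold lower, with no overlap (log2 -1.49 ± 0.07, adjusted p = 1.02e-12). The SpdefKO_EC libraries were at 1183, 1099.6, 1142 and 1133 CPM against 441, 440.0, 419 and 462 CPM in SpdefKO_GC (log2 -1.37, adjusted p = 3.94e-12).

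Hnf4g, on chromosome 3 (3508030–3658052, plus strand), was at 67.2, 65.7, 67.9 and 66.1 CPM in WT_EC and 43.8, 34.0, 35.3 and 39.4 CPM in WT_GC (log2 -0.81 ± 0.10, adjusted p = 1.17e-06). In SpdefKO_EC it was at 53.3, 63.1, 47.9 and 66.5 CPM and in SpdefKO_GC at 37.0, 44.4, 42.8 and 38.5 CPM (log2 -0.50, adjusted p = 0.000317). The groups did not overlap in either genotype, though the lowest SpdefKO_EC library, 8, came within a few CPM of SpdefKO_GC 5. The SpdefKO difference did not pass against a 1.5-fold bound.

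Reads of Hnf4a outnumbered those of Hnf4g in all 16 libraries. The count ratio averaged 16.3 (14.4–18.1) in WT_EC and 10.3 (8.60–11.7) in WT_GC, and 20.1 (17.03–23.9) in SpdefKO_EC against 10.9 (9.78–11.996) in SpdefKO_GC. The ratio stood lower in GC in both genotypes with no overlap, by 0.67 and 0.88 on the log2 scale (exact two-sided permutation p = 0.0286, the smallest possible, adjusted 0.0571 in each). Neither difference passed after adjustment. Between genotypes the ratio differed by 0.30 on the log2 scale in EC (exact p = 0.143, adjusted 0.229) and by 0.09 in GC (exact p = 0.6, adjusted 0.6).

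**Figure D2:**
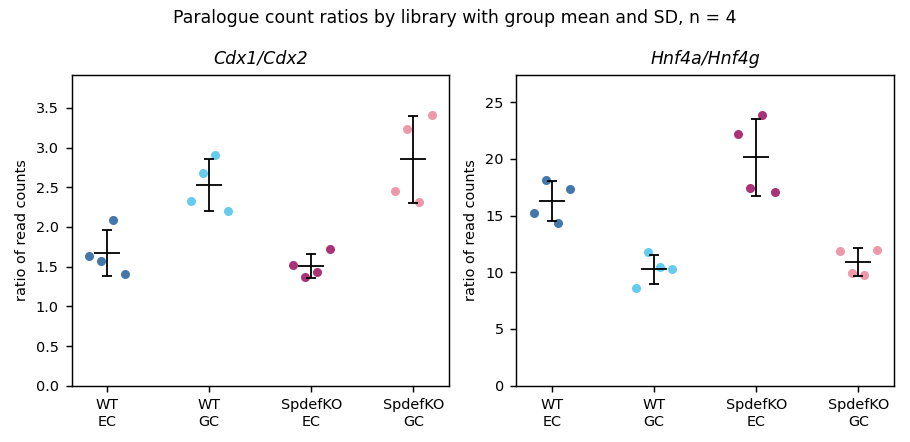
Ratio of read counts (y axis, from 0) of Cdx1 to Cdx2 (left) and of Hnf4a to Hnf4g (right) in each library, with group mean and SD. Goblet cell libraries lie above all EC libraries of their genotype for the caudal pair and below them for the HNF4 pair.

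Vdr, the third nuclear receptor, lies on chromosome 15 (97854425–97910630, minus strand). It was at 397, 415, 344 and 416 CPM in WT_EC and 131, 137, 100.04 and 132 CPM in WT_GC, a difference of 3.15-fold with no overlap (log2 -1.65 ± 0.15, adjusted p = 2.23e-08). In SpdefKO_EC it was at 309, 453, 328 and 368 CPM and in SpdefKO_GC at 117, 173, 109 and 132 CPM (log2 -1.45, adjusted p = 1.27e-07). Goblet cells held 31.8% of the EC level in WT and 36.5% in SpdefKO.

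Tcf7l2, on chromosome 19 (55741820–55933654, plus strand, up to 15 exons), was at 104, 121, 99.5 and 112 CPM in WT_EC and 31.7, 28.4, 26.4 and 29.5 CPM in WT_GC. This was 3.76-fold lower (log2 -1.91 ± 0.17, adjusted p = 2.91e-08). In SpdefKO the EC libraries were spread more widely, at 78.1, 131, 87.2 and 119 CPM, and the GC libraries were at 32.3, 51.9, 34.3 and 47.2 CPM (log2 -1.32 ± 0.16, adjusted p = 2.38e-06). The fractions did not overlap in either genotype.

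Prdm1 differed most between the fractions. It lies on chromosome 10 (44437177–44528501, minus strand, up to 8 exons). Its levels were 9.12, 9.56, 8.78 and 10.6 CPM in WT_EC and 1.26, 0.781, 0.699 and 0.622 CPM in WT_GC, the latter from only 19, 14, 11 and 7 reads. The difference was 11.1-fold (log2 -3.47 ± 0.20, adjusted p = 1.42e-11). In SpdefKO_EC it was at 30.8, 23.4, 30.1 and 22.1 CPM and in SpdefKO_GC at 2.12, 2.29, 1.98 and 2.77 CPM, a difference of 11.6-fold (log2 -3.54 ± 0.16, adjusted p = 8.8e-13). Goblet cells held 8.84% of the EC level in WT and 8.61% in SpdefKO.

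The remaining factors varied little with the fraction. Klf5, on chromosome 14 (99298691–99315036, plus strand), was at 226, 212, 203 and 236 CPM in WT_EC and 236, 230.4, 193 and 239 CPM in WT_GC, with full overlap (log2 0.03 ± 0.13, adjusted p = 0.834). In SpdefKO_EC it was at 184, 272, 183 and 213 CPM and in SpdefKO_GC at 235, 325, 222 and 270.4 CPM (log2 0.30 ± 0.13, adjusted p = 0.052, interval 0.05 to 0.55). SpdefKO_EC 6 and SpdefKO_GC 5 were the highest of their groups. Klf5 passed as higher in SpdefKO_GC without SpdefKO_EC 6 (log2 0.44, adjusted p = 0.00267), SpdefKO_GC 7 (0.0234), SpdefKO_GC 3 (0.039) or WT_GC 13 (0.0456). It also passed with upper-quartile scaling (log2 0.42, adjusted p = 0.00955) and with limma-voom (adjusted p = 0.0476). Without any other single library Klf5 did not pass, and its adjusted p ranged up to 0.199.

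Elf3, on chromosome 1 (135253575–135258568, minus strand), was at 855, 659, 641 and 747 CPM in WT_EC and 675, 508, 488 and 540.2 CPM in WT_GC. The groups overlapped, since WT_GC 9 exceeded WT_EC 12 and 14, and the difference still passed (log2 -0.39 ± 0.10, adjusted p = 0.00298). In SpdefKO_EC it was at 629.9, 663, 713 and 638 CPM and in SpdefKO_GC at 473, 561, 486 and 537 CPM (log2 -0.36, adjusted p = 0.00589), without overlap. Elf3 is the exception among the 7 lower factors in WT, the other 6 having no overlap, where 59.4% of all genes tested did not overlap in this comparison and 29.3% were lower without overlap. In SpdefKO none of the 7 overlapped, where 48.1% of all genes did not and 24.6% were lower without overlap. It did not pass against a 1.5-fold bound in either genotype.

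**Figure D3:**
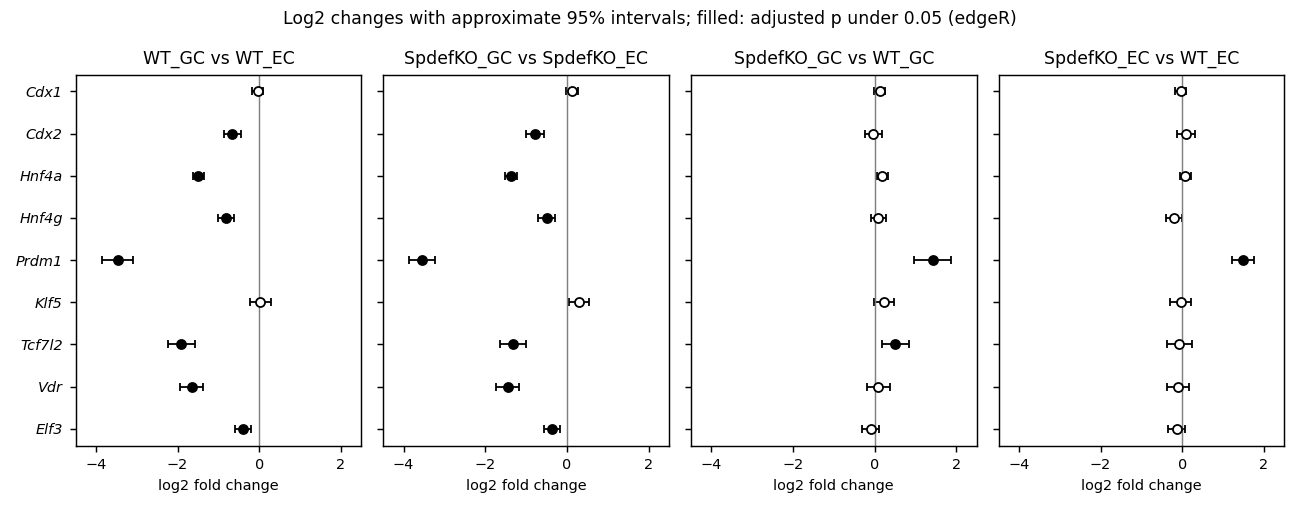
Log2 fold change (x axis) of each factor (y axis) in the 4 comparisons of groups, with approximate 95% intervals and filled points where the adjusted p was under 0.05. The GC against EC panels look alike in both genotypes, and in the genotype panels Prdm1 stands apart at 1.42 in GC and 1.49 in EC.

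The comparison of genotypes asks which of these factors differ between libraries labelled SpdefKO and WT in each fraction. In EC, Prdm1 was the factor that rose, 1 of 9, with none lower, where 12.6% of all genes tested differed, 6.09% higher and 6.54% lower. In GC, Prdm1 and Tcf7l2 rose, 2 of 9, with none lower, where 21.4% differed, 10.4% higher and 11% lower. Both counts are near the share of all genes. No member was lower in GC at an unadjusted p under 0.05, 1 was in EC (Hnf4g), and DESeq2 called none lower in either.

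The promoter regions of the 2 factors that differed between genotypes follow, as 250 bases ending just before the annotated RefSeq start, 5′ to 3′ on the gene's strand (GRCm38.p6). Prdm1 at chr10:44458749-44458998 on the minus strand has capitals for a match to GGTTCA, the hexamer bound by VDR, on its opposite strand. Tcf7l2 at chr19:55741560-55741809 on the plus strand has capitals for matches to GGGCGGGG, the GC box bound by KLF and SP factors, on its opposite strand. Neither window overlaps an annotated exon. The table also held a window at a start inside the Tcf7l2 gene (chr19:55895071-55895320), which is not printed because the window at the 5′ end of Tcf7l2 was chosen. The Prdm1 window, the only one held for that gene, is also at a start inside the gene. The 5′ end of Prdm1 as annotated by GENCODE is at 44528501, and no window was held there.
Prdm1: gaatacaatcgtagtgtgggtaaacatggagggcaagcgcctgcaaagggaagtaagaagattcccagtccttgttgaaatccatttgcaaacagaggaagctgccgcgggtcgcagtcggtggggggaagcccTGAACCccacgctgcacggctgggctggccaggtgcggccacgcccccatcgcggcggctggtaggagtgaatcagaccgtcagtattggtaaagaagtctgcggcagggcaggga
Tcf7l2: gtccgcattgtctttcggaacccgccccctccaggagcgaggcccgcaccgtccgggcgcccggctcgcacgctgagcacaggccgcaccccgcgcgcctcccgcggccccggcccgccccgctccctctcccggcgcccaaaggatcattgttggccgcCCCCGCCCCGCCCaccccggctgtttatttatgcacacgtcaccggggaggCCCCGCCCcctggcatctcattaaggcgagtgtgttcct
The Prdm1 match begins 116 bases before the start. The 3 Tcf7l2 matches begin 90, 85 and 39 bases before the start, and the first pair overlap. Among 32851 RefSeq promoters cut to 250 bases, 8.85% held GGTTCA and 16.1% held GGGCGGGG on either strand. The other motifs searched on both strands were CCGGAT (SPDEF core, in 4.94% of promoters), TTTATNG (CDX, 9.81%), CAAAGTCCA (HNF4, 0.384%), CTTTGAT (TCF and LEF, 3.21%) and CCGGAAGT (ETS, 2.88%), and these letters were in neither window printed. The internal Tcf7l2 window held 1 match to TTTATNG, beginning 242 bases before its start, and no other match. A match describes the letters and is not a measured site. The table held promoters for 6 of the 9 factors.

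Prdm1 rose 2.80-fold in EC of libraries labelled SpdefKO, from 9.52 ± 0.809 to 26.6 ± 4.47 CPM (log2 1.49 ± 0.14, adjusted p = 2.77e-06). The lowest SpdefKO_EC library, 20, was at 22.1 CPM, above the highest WT_EC library at 10.6 CPM. It was 1 of 9 without overlap in EC, where 15.3% of all genes tested did not overlap, 6.94% higher and 8.37% lower. By p-value Prdm1 ranked 12th of the 12915 genes in this comparison. The rise in goblet cells was 2.67-fold, with group means of 0.842 ± 0.289 and 2.29 ± 0.344 CPM (log2 1.42 ± 0.23, adjusted p = 0.00023). All 4 SpdefKO_GC libraries (28–39 reads) lay above all 4 WT_GC libraries (7–19 reads). The size of the rise was not detectably different between the fractions (interval of the log2 difference -0.68 to 0.55). The log2 change ranged from 1.40 to 1.56 in EC and from 1.33 to 1.67 in GC over 23 alternative settings, and it passed in each. Prdm1 in GC stood at 8.84% (WT) and 8.61% (SpdefKO) of its EC level. The 12 absorptive colonocyte markers stood at 1.59–57.8% of their EC level in WT_GC and 3.06–58.1% in SpdefKO_GC. How far RNA of EC cells within the goblet fraction contributes to its Prdm1 reads was not tested.

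Prdm1 is also a gene of plasma cells and other leukocytes, so their markers were read in the same libraries. The 9 plasma and B cell markers in the table summed to 0.943–2.57 CPM in WT_EC and 2.61–5.54 CPM in SpdefKO_EC, and in goblet cells to 1.08–2.06 CPM for WT and 2.15–4.07 CPM for SpdefKO. Tnfrsf17 was at 0 reads in all groups but WT_EC, and Mzb1 in both goblet groups. Jchain (Igj in the table), the joining chain of secreted antibodies, rose from 1.02 to 3.42 CPM in SpdefKO_EC (log2 1.73, adjusted p = 0.0103). Within SpdefKO_EC the marker sums were 2.61, 5.54, 3.70 and 5.42 CPM in libraries 4, 6, 8 and 20, and Prdm1 was higher in 4 and 8 than in 6 and 20. The list held 10 markers, and the remaining one, Igkc, an antibody light chain gene, was not among the genes counted. The sums therefore leave it out. In goblet cells most of the sum was Derl3, a protein of the endoplasmic reticulum (1.06 CPM in WT, 2.35 CPM in SpdefKO), and Jchain was at 0.0381 and 0.0351 CPM.

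The 12 markers of T cells and other leukocytes summed to 38.8–45.1 CPM in WT_EC and 41.5–55.8 CPM in SpdefKO_EC, and to 41.5–45.5 and 48.4–56.7 CPM in GC. Of the 6 tested, Cd14, a monocyte marker, was the 1 that rose in SpdefKO_EC (log2 0.48, adjusted p = 0.0076), and none fell. It was also the largest part of the EC sums, at 27.0 CPM in WT_EC and 37.7 CPM in SpdefKO_EC. Ptprc, of the same list, did not pass (5.69 and 6.41 CPM, log2 0.19, adjusted p = 0.573). The 12 absorptive colonocyte markers summed to 10529–11245 CPM in WT_EC and 10119–12036 CPM in SpdefKO_EC, and 3 rose and 3 fell. Of the other cell types, 7 of 10 enteroendocrine markers fell in SpdefKO_EC (sums of 559.6–756 CPM in WT_EC and 252–420.1 CPM in SpdefKO_EC), as did 4 of 6 tested tuft cell markers (38.4–76.4 and 9.07–16.3 CPM). Dclk1, a kinase of tuft cells, was at 21.2 and 4.66 CPM (log2 -2.16, adjusted p = 0.00129). Of 10 goblet markers 4 fell and none rose. Of 8 stem and cycling markers, 2 rose and 1 fell, with sums of 794–1177 CPM in WT_EC and 1008–1676 CPM in SpdefKO_EC. The 2 were the proliferation marker Mki67 (log2 0.57, adjusted p = 0.00946) and Cenpe, a kinetochore motor (log2 0.85, adjusted p = 0.000572). In SpdefKO_EC 4, 6, 8 and 20, the absorptive sums were 12036, 10119, 11618 and 10305 CPM. The stem and cycling sums there were 1552, 1008, 1676 and 1182 CPM. Both were higher in 4 and 8 than in 6 and 20, as Prdm1 was. The leukocyte and tuft cell sums had that order too, and the enteroendocrine, goblet and stromal sums did not. The part of these cell types in the Prdm1 difference was not tested.

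**Figure D4:**
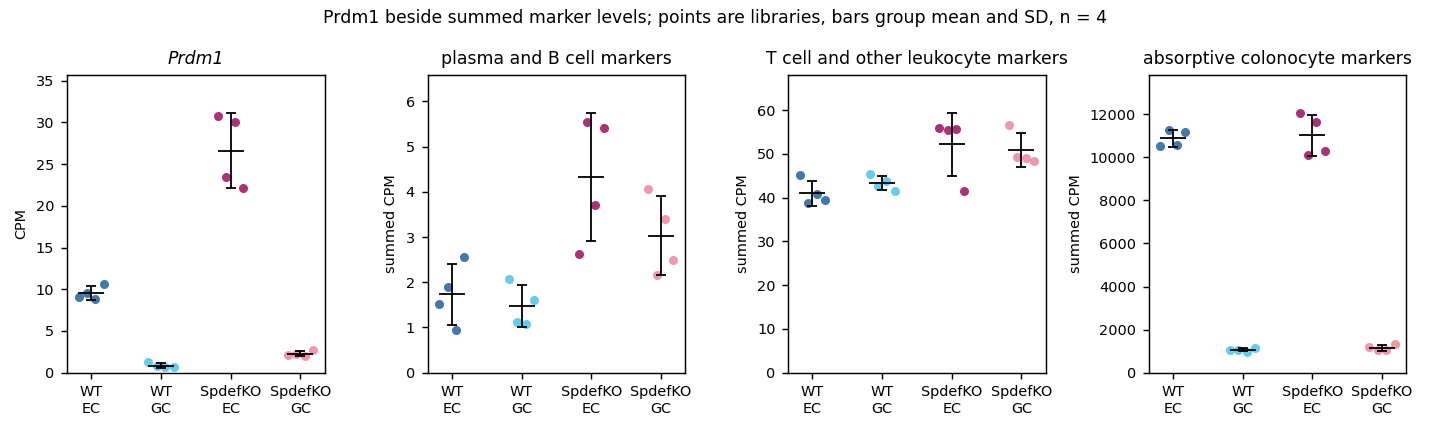
CPM of Prdm1 (left) and summed CPM of markers of plasma and B cells, of T cells and other leukocytes, and of absorptive colonocytes in each library, with group mean and SD and every y axis from 0. Prdm1 and the plasma and B cell sum are both higher in SpdefKO_EC than in WT_EC. The order of the SpdefKO_EC libraries differs between the 2 panels. In the leukocyte and absorptive panels, SpdefKO_EC 4 and 8 lie above 6 and 20, as they do for Prdm1.

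Tcf7l2 rose in SpdefKO_GC from 29.0 ± 2.22 to 41.4 ± 9.58 CPM (log2 0.51 ± 0.17, adjusted p = 0.0384). The groups did not overlap, but SpdefKO_GC 3 and 7 (32.3 and 34.3 CPM) lay just above the highest WT_GC library (31.7 CPM), while 5 and 19 were at 51.9 and 47.2 CPM. The call was lost without any 1 of WT_GC 9 (adjusted p = 0.0514), 11 (0.0661), 13 (0.104) or 18 (0.0606), or SpdefKO_GC 5 (0.124) or 19 (0.0939). It was also lost with limma-voom (0.0684), without the filter on low counts (0.0918) and against a 1.5-fold bound (adjusted p = 1). In EC Tcf7l2 did not pass (log2 -0.07, adjusted p = 0.813, interval -0.38 to 0.24).

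Beside this difference, all 10 enteroendocrine markers rose in SpdefKO_GC, their sum going from 89.7–126 to 214–327 CPM. Stromal and endothelial markers summed to 3.11–3.91 CPM (WT_GC) and 8.97–11.7 CPM (SpdefKO_GC). Of the 3 tested, 1 rose, Vim, an intermediate filament of mesenchymal cells (1.65 against 6.93 CPM, log2 2.06, adjusted p = 7.75e-06). Vim was the largest part of the SpdefKO_GC sum. The others, Pecam1 (0.973 against 1.05 CPM, log2 0.13, adjusted p = 0.826) and Col3a1 (adjusted p = 0.693), did not pass. Of the 12 absorptive markers, 7 rose and 1 fell, with sums of 983–1165 CPM for WT and 1031–1319 CPM for SpdefKO. The stem and cycling markers summed to 916–1229 CPM in WT_GC and 1300.2–1995 CPM in SpdefKO_GC, where Mki67 (log2 0.80, adjusted p = 0.000338) and Cenpe (log2 0.87, adjusted p = 0.000162) rose and 1 of the 8 fell. Itgam, an integrin of myeloid cells, was at 1.79 CPM in WT_GC and higher in SpdefKO_GC at 4.35 CPM (log2 1.27, adjusted p = 0.000427). It was the 1 of 6 tested leukocyte markers that rose in SpdefKO_GC, and none fell. The part of these cells in the Tcf7l2 and Prdm1 differences of goblet cells was not tested.

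Hnf4a was the third factor whose goblet libraries did not overlap between genotypes, where 25.1% of all genes tested did not, 11.5% being higher in SpdefKO_GC. It had means of 387 ± 16.9 CPM for WT and 440.4 ± 17.6 CPM for SpdefKO. It just missed the threshold (log2 0.19 ± 0.069, adjusted p = 0.0608, interval 0.05 to 0.32). It passed with only the groups compared (adjusted p = 0.0318), with DESeq2 (0.029) and with limma-voom (0.0496), and ranged from 0.031 to 0.158 with single libraries left out.

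The other factors did not pass between genotypes in GC. Cdx2 had a log2 change of -0.03 (interval -0.24 to 0.19), Cdx1 of 0.12 (-0.02 to 0.26), Hnf4g of 0.09 (-0.10 to 0.29), Vdr of 0.09 (-0.19 to 0.37), Klf5 of 0.23 (-0.02 to 0.48) and Elf3 of -0.10 (-0.31 to 0.10). In EC the corresponding values were 0.10 (-0.12 to 0.31) for Cdx2, -0.04 (-0.18 to 0.10) for Cdx1 and -0.21 (-0.41 to -0.02, adjusted p = 0.171) for Hnf4g. Hnf4a was at 0.07 (-0.06 to 0.20), Vdr at -0.11 (-0.38 to 0.17), Klf5 at -0.04 (-0.29 to 0.21) and Elf3 at -0.13 (-0.34 to 0.07). These intervals leave room for modest differences in either direction for most members.

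None of the 9 factors passed the test of whether the genotype difference in GC differed from that in EC, by edgeR, DESeq2 or limma-voom. Over all genes, 9.53% passed the edgeR test. The log2 difference of SpdefKO from WT was more positive in GC than in EC for 4.88% and more negative for 4.65%. Of the 9 factors, 2 had an unadjusted p under 0.05, Tcf7l2 (log2 0.58 ± 0.23, adjusted p = 0.126) and Hnf4g (log2 0.31 ± 0.14, adjusted p = 0.193). Tcf7l2 passed when SpdefKO_EC 6, its highest EC library at 131 CPM, was left out (log2 0.72, adjusted p = 0.0416).

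Some libraries sat at an end of their group for several factors at once. SpdefKO_GC 5 was highest of its group for 6 factors (Cdx1, Hnf4g, Klf5, Tcf7l2, Vdr and Elf3), and SpdefKO_EC 6 was highest for Klf5, Tcf7l2 and Vdr. WT_EC 14 was lowest of its group for 7 factors and WT_GC 13 for 6.

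The genes around each factor were read from lists that left the 9 factors out. In the wider network of gut transcription factors, 23 of 34 tested genes were lower in WT_GC than in WT_EC and 4 higher, with a median log2 change of -0.73. The shares were 67.6% lower and 11.8% higher, against 30.2% and 31.0% of all genes tested. Creb3l3, a factor of lipid metabolism, was at 6.64 CPM in WT_EC and 0.129 CPM in WT_GC (log2 -5.72 ± 0.28, adjusted p = 1.78e-12). Foxa3 (21.6 to 159 CPM, log2 2.87 ± 0.13) and Foxa2 (24.1 to 73.3 CPM, log2 1.60 ± 0.097), forkhead factors of secretory cells, were higher in WT_GC. Between genotypes, 4 rose and 1 fell in GC and 3 rose and 1 fell in EC. These 14.7% and 11.8% stand against 21.4% and 12.6% of all genes tested. Creb3l3 rose in both, to 0.470 CPM in GC (log2 1.92 ± 0.43, adjusted p = 0.004) and 11.6 CPM in EC (log2 0.81 ± 0.15, adjusted p = 0.00193). Foxa3 fell in SpdefKO_GC to 90.9 CPM (log2 -0.81 ± 0.12, adjusted p = 0.000104).

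Among relatives of the factors by protein family, 9 of 32 were lower and 6 higher in WT_GC, a share of 28.1% lower, close to the 30.2% of all genes, and 18.8% higher, below the 31.0% of all genes. Rxra, the partner of VDR, was lower in goblet cells of both genotypes, at 135 CPM in WT_EC and 48.9 CPM in WT_GC (log2 -1.46 ± 0.064, adjusted p = 3.51e-13). Elf4, an ETS relative of Elf3, was lower too (134 and 32.9 CPM, log2 -2.03 ± 0.086) and rose in SpdefKO_GC to 48.7 CPM (log2 0.57 ± 0.085, adjusted p = 0.000109). Spdef itself, a relative of Elf3, was the highest change of this list in goblet cells (log2 6.77 ± 0.21 in WT).

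Between the fractions the partners of TCF7L2 went in both directions in WT, while the Wnt target genes that differed were mostly higher in GC. Of 13 tested partners in the β-catenin complex, 6 were lower and 5 higher in WT_GC, 84.6% against 61.2% of all genes. The 6 became 3 with upper-quartile factors or without WT_GC 13. In SpdefKO 7 of the 13 partners were higher in GC and 2 lower, 53.8% and 15.4% against 28.0% and 28.4% of all genes. Ctnnb1, which encodes β-catenin, was at 1285 CPM in WT_EC and 871 CPM in WT_GC (log2 -0.56 ± 0.073, adjusted p = 2.13e-06). Ctnnbip1, an inhibitor that keeps β-catenin off TCF factors, was higher in goblet cells (16.03 to 56.4 CPM, log2 1.82 ± 0.084, adjusted p = 8.57e-13) and rose in SpdefKO_EC to 22.4 CPM (log2 0.49 ± 0.086, adjusted p = 0.00129). Of 15 tested Wnt target genes, 5 were higher in WT_GC and 1, the stem cell receptor Lgr5 (14.5 and 8.73 CPM, log2 -0.74 ± 0.17), was lower, 40.0% in all and below the 61.2% of all genes. In SpdefKO 9 of the 15 were higher in GC and 2 lower, 60.0% and 13.3% against 28.0% and 28.4% of all genes. Between genotypes in GC, 2 of the 15 rose and 3 fell (median log2 -0.09), 33.3% in all against 21.4% of all genes. Myc, a transcription factor of growth, rose in SpdefKO_GC from 34.8 to 54.4 CPM (log2 0.64 ± 0.14, adjusted p = 0.00402). Those that fell included Ascl2 (log2 -0.69, adjusted p = 0.027) and Ephb3 (log2 -0.36, adjusted p = 0.0156). In SpdefKO_EC 3 of the 15 fell with none higher, 20% lower against 6.54% of all genes.

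Vitamin D genes were mostly lower in goblet cells. Of 17 tested, 10 were lower and 4 higher in WT_GC, 58.8% and 23.5% against 30.2% and 31.0% of all genes. Trpv6, the apical calcium channel, was at 167 ± 22.4 CPM in WT_EC and 5.36 ± 2.07 CPM in WT_GC (log2 -4.99 ± 0.24, adjusted p = 1.99e-11). Slc30a10, a metal transporter known as a vitamin D target, was at 141 and 9.97 CPM (log2 -3.83 ± 0.31). Between genotypes in EC, where Vdr itself did not pass, 4 fell and 1 rose. These were 23.5% and 5.88% of the 17, against 6.54% and 6.09% of all genes. S100g, the calcium-binding protein calbindin-D9k, fell from 36.1 ± 7.71 to 8.23 ± 2.73 CPM (log2 -2.16 ± 0.22, adjusted p = 1.27e-05). Slc30a10 fell from 141 ± 30.1 to 44.9 ± 19.6 CPM (log2 -1.66 ± 0.28, adjusted p = 0.00159). Goblet cells held little S100g in either genotype (2.67 CPM for WT, 3.12 CPM for SpdefKO), and its genotype difference in GC differed from that in EC (log2 2.39 ± 0.36, adjusted p = 0.000474).

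Most textbook target genes of the HNF4 and CDX factors were lower in goblet cells. Of 24 tested HNF4 targets of absorption and lipid handling, 19 were lower and 2 higher in WT_GC (median log2 -1.47), and of 19 tested CDX targets 15 were lower and 3 higher (median -1.81). The lower shares were 79.2% (HNF4) and 78.9% (CDX), against 30.2% of all genes. The higher shares were 8.33% and 15.8%, against 31.0%. Slc26a3, the chloride and bicarbonate exchanger found in both lists, was at 2069 and 55.0 CPM (log2 -5.24 ± 0.19), and Slc9a3, the sodium and proton exchanger, at 250.2 and 3.97 CPM (log2 -5.98 ± 0.20). Muc2, the goblet mucin that CDX2 is known to activate, was in turn higher in WT_GC (48.3 to 12078 CPM, log2 7.96 ± 0.21). Several of these genes are also markers of absorptive colonocytes or goblet cells, so the lists and the sort are not independent.

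In goblet cells of SpdefKO against WT, 11 of 19 CDX targets rose and 2 fell (median log2 0.47), and 8 of 24 HNF4 targets rose and 1 fell (median 0.18), where 10.4% of all genes rose, 11% fell and their median was 0. Against a 1.5-fold bound 2 genes of each list rose. The 11 became 7 without WT_GC 13 or SpdefKO_GC 19, and the 8 became 4 without WT_GC 9 and 5 without WT_GC 13 or SpdefKO_GC 19. Guca2a and Guca2b, the peptides guanylin and uroguanylin, rose from 255 to 545 CPM (log2 1.10 ± 0.079, adjusted p = 1.64e-08) and from 27.3 to 73.7 CPM (log2 1.43 ± 0.12, adjusted p = 6.52e-08). Slc9a3 rose as well (3.97 against 13.7 CPM, log2 1.79 ± 0.20, adjusted p = 9.89e-06). The CDX and HNF4 genes themselves did not pass in this comparison. The absorptive and enteroendocrine marker sums given above move with these counts, and their part was not tested.

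In EC the same lists moved both ways. Of 19 CDX targets 4 were higher and 5 lower, and of 24 HNF4 targets 6 were higher and 3 lower. In all, 47.4% and 37.5% differed, against 12.6% of all genes tested in this comparison. Vil1, the brush border protein villin, rose from 943 to 1258 CPM (log2 0.41 ± 0.081, adjusted p = 0.00284), and Mep1a, a brush border metalloprotease, fell from 569 to 281 CPM (log2 -1.02 ± 0.11, adjusted p = 1.92e-05). Apoc2, an apolipoprotein, rose from 8.33 to 20.2 CPM (log2 1.29 ± 0.19, adjusted p = 0.000248).

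**Figure D5:**
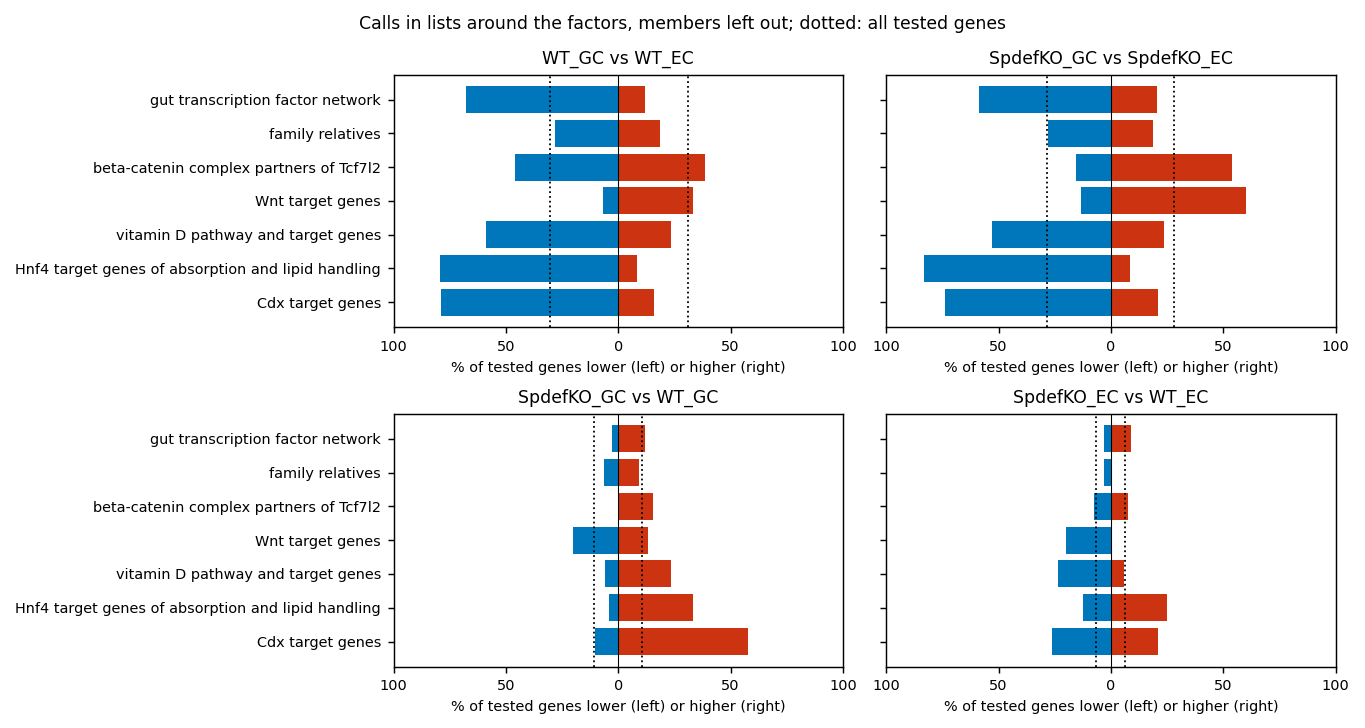
Share of tested genes lower (left of 0) or higher (right of 0) in each list, in the 4 comparisons, with dotted lines at the shares over all 12915 genes tested. In WT_GC against WT_EC the HNF4 and CDX target lists reach furthest to the left (19 of 24 and 15 of 19 lower), and in SpdefKO_GC against WT_GC the CDX list reaches furthest to the right (11 of 19 higher).

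The genes whose levels ran most like each factor over the 16 libraries were found by Pearson correlation of log2 CPM among 10405 genes with a mean of at least 5 CPM. The libraries fall into 4 groups, so a high value mostly reflects a shared difference between groups, and no test was made. Prdm1 ran most like Capg (r = 0.986), an actin capping protein, and Vil1 (r = 0.985). Capg was at 62.4 CPM in WT_EC, 120.1 in SpdefKO_EC, 14.9 in WT_GC and 30.9 in SpdefKO_GC, the same order as Prdm1. Hnf4a ran most like 2200002D01Rik (r = 0.998) and Mxd1 (r = 0.998), a partner of MAX. Tcf7l2 ran most like Tnip1 and Wipf2 (r = 0.994 each) and Vdr ran close to Sash1 (r = 0.992). Cdx2 ran most like Cpne2 (r = 0.974) and Stx12 (r = 0.967), and Hnf4g most like Ccser1 (r = 0.968) and Rab17 (r = 0.965). Elf3 ran most like Zbtb7a (r = 0.925) and Cry2 (r = 0.923), and Klf5 ran close to Usp22 (r = 0.903). Cdx1, which differed least between groups, had the lowest values, with Map1s (r = 0.812) and Pcyt2 (r = 0.697).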

How the data were processed

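The deposited values were read counts per gene symbol, 1 column for each of 16 libraries, as made by the authors. Per the submitters' processing notes, FastQC 0.11.2, STAR 2.4.0f, HTSeq 0.6.1p1 and DESeq2 1.14 were used with the mouse build mm10. What each did, the annotation and the strand setting of the counting were not given in the sources used here. Libraries were made with a stranded total RNA kit after ribosomal depletion, per the labels' protocols. A second table of normalized values was not used. Reads under the 3 entries without a gene (47.1–54.7% of counts) were left out of library sizes and of all tests.

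Differences were tested with the edgeR quasi-likelihood test (edgeR 4.0.16, limma 3.58.1, R 4.3.3), with TMM factors (0.944–1.06), the default filter on low counts and 1 coefficient per group over all 16 libraries, and Benjamini-Hochberg adjustment over 12915 genes. The biological coefficient of variation was 11.7%. The standard error was computed as the size of the log2 change over the root of the F statistic, and intervals are 1.96 standard errors to each side, both approximate. The procedure was checked on simulated counts in which a small set of genes changed in SpdefKO_GC only. That setting lacks the wide differences between GC and EC, so the check does not cover those comparisons. Libraries of a group differed beyond sampling noise in every pair (chi-square over degrees of freedom 4.33–32.5), and none was counted as a duplicate. Count ratios of paralogues had 0.5 added to each count on the log2 scale and were tested by exact permutation. Gene lengths and positions came from GENCODE on GRCm38, and promoter sequences from RefSeq (GRCm38.p6). Clca1, a goblet marker, is listed under its older symbol Clca3.

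The 9 factors and the lists were chosen with earlier results of these data known. The text names the 9 factors, at most the 2 largest changes in each direction of each list among those past the threshold, the 2 genes most like each factor (for Vdr and Klf5, 1 of the 2 is not reported here), markers given beside a result, and Spdef. Alternatives were other scaling factors, no filter, a 1.5-fold bound, only the groups compared, DESeq2 1.42.0, limma-voom and leaving out each library.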

Additional observations from a re-analysis of the deposited data

Results flagged for a closer look

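In groups of 4, a library was marked when its gap to the nearest other library, divided by the range of the group, exceeded 0.829. Of 36 groups screened (9 factors in 4 groups), 2 were marked, about the 1 in 20 that chance gives. Cdx2 in WT_GC had its highest library, 18, at 82.3 CPM against 72.8–74.2 CPM in the other libraries (gap over range 0.849). Vdr in WT_GC had its lowest library, 13, at 100.04 CPM against 131–137 CPM (gap over range 0.832). Both factors stayed lower in WT_GC than in WT_EC with that library left out.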

How the results depend on the processing

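No paired analysis was made, because the groups share no library numbers. GC and EC libraries of a genotype carry neighbouring numbers, such as SpdefKO_GC 5 and SpdefKO_EC 6, and all tests treated them as unlinked. Whether a GC and an EC library came from the same mouse is not in the labels. Over 23 alternatives (22 for the interaction), no call of a factor reversed. The count of factors lower in WT_GC stayed at 7 except for 5 against a 1.5-fold bound, and in SpdefKO_GC against SpdefKO_EC it was 7 except for 4 against that bound. Factors higher in SpdefKO_GC against SpdefKO_EC numbered 2 with upper-quartile factors, 1 with limma-voom and 0–1 with single libraries left out. Factors higher in SpdefKO_GC against WT_GC numbered 1 without the filter on low counts, 1 against the 1.5-fold bound and 1–3 with single libraries left out. The interaction had 0–1 higher with single libraries left out. The cause of these changes was not tested. The ratio differences between fractions kept their direction, and 3 libraries against 4 cannot reach 0.05 after adjustment.

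Over all genes, the 1.5-fold bound left 1440 higher and 1950 lower in WT_GC against WT_EC (4007 and 3894 without it), 1312 and 1580 in SpdefKO_GC against SpdefKO_EC (3619 and 3666), 125 and 135 in SpdefKO_GC against WT_GC (1342 and 1422), 33 and 100 in SpdefKO_EC against WT_EC (787 and 844), and 102 and 44 in the interaction (630.0 and 601). With only the groups compared, 470.0 genes were higher in SpdefKO_EC than in WT_EC, and without SpdefKO_EC 4 or 6 there were 380.0 or 1183. Upper-quartile factors moved the share of higher among called genes from 49.7% to 60.9% in SpdefKO_GC against SpdefKO_EC and from 48.3% to 33.1% in SpdefKO_EC against WT_EC. For the genes of the lists and the markers named these alternatives were added after seeing the data: of 121 results, 64 lost or gained the call under at least 1 of them, most often the 1.5-fold bound, and none reversed. Prdm1 in WT_GC rests on 7–19 reads per library, which limits its precision.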
